A study of Mus musculus with 12 samples.

Results

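The histone genes examined here were the genes of the count table whose symbol began with Hist, a digit and h, together with 7 singly encoded genes (H1f0, H1fx, H2afx, H2afy, H2afz, H3f3a and H3f3b). A gene was kept where its counts summed to at least 60 over 12 tumours. By name 77 genes matched and 76 were kept, of 39017 genes in the table, and Hist1h2aa, with 30 counts, was left out. The kept genes with the fewest counts were Hist1h1t with 107, Hist1h2ba with 269 and H1fx with 520. The 69 clustered genes comprised 6 linker H1, 19 H2A, 19 H2B, 12 H3 and 13 H4 genes. All 76 genes passed the filter on low counts that was applied to the whole table. On mm10, 56 of them lie on chromosome 13, 11 on chromosome 3, 4 on chromosome 11, 2 on chromosome 6 and 1 each on chromosomes 1, 9 and 15.

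RNA came from bulk mammary tumours in female FVB/N mice, aged 8 to 12 weeks when 250000 cells were placed in the fourth mammary fat pad. The cells were NIC, a mouse breast cancer line positive for ErbB2. Per the series' design text, p66Low cells lack p66ShcA, the longest protein of the Shc1 gene, and p66High cells were made from them by constitutive overexpression of p66ShcA. Aggressive tumours came from p66Low or p66High cells taken through 2 rounds of selection in mammary fat pads and put back into culture, and parental tumours from cells without it. Parental and aggressive tumours of both lines made 4 groups of 3 tumours. A line and its selected derivative are each 1 cell population, so the tumours of a group do not replicate the selection. Titles of 2 p66High parental tumours (replicates 1 and 2) share a number, as do titles of 2 p66High aggressive tumours (replicates 1 and 2), and the labels do not say whether such a pair came from 1 mouse. P-values therefore measure the spread between these tumours.

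Histones package DNA. H2A, H2B, H3 and H4 form the core of the nucleosome, and linker histone H1 binds the DNA where it enters and leaves. Most clustered histone genes are replication-dependent: they have no introns, they are transcribed mainly in S phase, and their mRNAs end in a conserved stem-loop, bound by the protein Slbp, in place of a poly(A) tail. Replacement histones such as H3.3, made from H3f3a and H3f3b, are encoded by polyadenylated mRNAs, are made throughout the cell cycle and are put into chromatin outside replication. Libraries here were depleted of ribosomal RNA, which keeps RNAs without a poly(A) tail.

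The stem-loops are shown for a few genes of each class because this element is the known 3′ end of mRNAs without a poly(A) tail. Each window was read from GENCODE M21 transcripts (GRCm38), sense strand, 5′ to 3′, and capitals mark the match. The motif searched, on the sense strand after the coding end, was GG, 2 free bases, CTTTT, 1 free base, AG, 2 free bases and CC.
Hist1h1c: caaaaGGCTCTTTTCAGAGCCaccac
Hist1h1e: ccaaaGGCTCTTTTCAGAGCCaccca
Hist1h2bf: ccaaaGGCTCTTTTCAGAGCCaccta
Hist1h3d: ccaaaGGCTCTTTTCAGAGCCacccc
Hist1h4h: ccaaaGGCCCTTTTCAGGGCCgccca
H2afx: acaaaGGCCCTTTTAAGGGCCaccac
The motif was found in 45 of the 76 members and in 61 of 21901 protein-coding genes (0.279%), 16 of them no members. The core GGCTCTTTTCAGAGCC was carried by 3 H1, 10 H2A, 8 H2B and 5 H3 genes. H4 genes carried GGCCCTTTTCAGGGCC in 7 cases. H2afx was the only one of the 7 singly encoded genes with a match. Annotated transcript goes on after the match for 822 bases in H2afx, 840 in Hist1h1c, 1153 in Hist1h1e and 752 in Hist1h3d, but for 29 in Hist1h2bf and 46 in Hist1h4h. Of the 31 members without a match 25 were clustered genes, and in 17 of these the annotated transcript goes on for at most 25 bases after the coding end.

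Promoters are shown for 3 linker genes because, as described further on, Hist1h1a fell in the p66High line while the values of its neighbours there were above 0. The windows are the 150 bases before the RefSeq start (GRCm38.p6), 5′ to 3′ on the gene's strand, and capitals mark the box CCAAT, the box TATAAA, the element AAACACA or the octamer ATTTGCAT on either strand.
Hist1h1a: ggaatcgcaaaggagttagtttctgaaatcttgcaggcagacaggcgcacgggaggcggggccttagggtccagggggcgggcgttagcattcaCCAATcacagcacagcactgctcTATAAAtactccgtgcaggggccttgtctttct
Hist1h1c: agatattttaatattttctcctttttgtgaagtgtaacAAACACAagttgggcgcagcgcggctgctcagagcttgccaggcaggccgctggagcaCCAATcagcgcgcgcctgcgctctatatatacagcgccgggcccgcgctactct
Hist1h1e: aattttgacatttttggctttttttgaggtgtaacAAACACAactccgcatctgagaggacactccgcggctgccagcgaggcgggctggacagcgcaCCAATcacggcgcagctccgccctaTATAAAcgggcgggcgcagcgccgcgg
These windows lie at chr13:23763518-23763667 (plus strand), chr13:23738657-23738806 (plus strand) and chr13:23622559-23622708 (minus strand). AAACACA, known as the H1 box of linker histone promoters, was present within 250 bases of the start in 5 of 6 H1 genes, and Hist1h1a was the one without it. Of 27025 genes with a RefSeq promoter 7.2% had it, among them 1 of 16 H2A, 2 of 16 H2B and 1 of 6 singly encoded genes. None of the H3 or H4 promoters did. A link between this element and the fall of Hist1h1a was not tested. CCAAT, present in 37.5% of genes, was found in 6 of 6 H1, 16 of 16 H2A, 16 of 16 H2B, 8 of 10 H3 and 3 of 12 H4 promoters. The octamer ATTTGCAT, present in 1.81% of genes, was found in 6 of 16 H2A and 7 of 16 H2B promoters and in none of the H1, H3 or H4 promoters. TATAAA was in 14.3% of genes and in 4 of 6 H1, 6 of 16 H2A, 8 of 16 H2B, 4 of 10 H3 and 6 of 12 H4 promoters. A match describes these letters in this window and is no measurement of binding.

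Total counts were 17.4 to 76.1 M (mega-counts) per tumour, and histone genes took 0.634 to 1.03% of them. No 2 tumours of a group agreed within sampling noise (lowest chi-square per degree of freedom 19.1). Shc1, the overexpressed gene, was at 59.0 to 69.9 CPM (counts per mega-count, scaled between libraries) in the 6 p66Low tumours. In p66High aggressive replicate 3 it was at 774 CPM and in the other p66High tumours at 223 to 271 CPM, so p66High and p66Low tumours were apart as their labels say. Parental and aggressive tumours of a line overlapped in Shc1, so it does not check those labels. Of the 12 mammary epithelial tumour markers, all 12 passed the filter and their summed level was 3197 to 4806 CPM. Of 8 lymph node stroma markers all 8 were at 0 in at least 1 tumour. They summed to 55.5 CPM in replicate 3 of the p66High parental group and to 173 and 249 CPM in replicates 1 and 2 of the p66Low aggressive group, but to at most 1.76 CPM elsewhere. In the aggressive comparison (p66High against p66Low), all 8 lymph node stroma, 10 B cell, 14 T cell and 11 macrophage markers were below 0. Past an adjusted p of 0.05 (edgeR), 4, 10, 14 and 8 of these were lower in p66High tumours, where 12.1% of all genes were. In p66High tumours, aggressive against parental, none of 8 stroma, 10 B cell and 14 T cell markers passed (edgeR; 3, 2 and 1 at an unadjusted p under 0.05), all of them were below 0, and 1 of 11 macrophage markers was lower. Adipocyte markers were below 0 in 12 of 12 (median -2.52, 1 lower after adjustment, 8 unadjusted), and they summed to 230 to 627 CPM in p66High parental and 16.9 to 199 CPM in p66High aggressive tumours. Endothelial markers were below 0 in 12 of 12 and fibroblast markers in 11 of 12, with none past the threshold (edgeR, 5 and 1 lower unadjusted). Among the 12 epithelial tumour markers Elf3 was higher (0.98, adjusted p = 0.0386, edgeR) and Cldn3 and Cldn4 were lower (-3.12 and -1.06, adjusted p = 0.0019 and 0.0442, edgeR). The part of these cells in the histone results was not tested, and values without the 3 libraries holding lymph node transcripts stand beside the results they change. In bulk tumours, a different share of dividing cells and a different amount of RNA per cell cannot be told apart.

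The 69 clustered genes together were highest in p66High aggressive tumours. Their summed level was 6166, 3991 and 6327 (parental) and 6712, 5301 and 4749 CPM (aggressive) in the p66Low line, and 4585, 5272 and 5728 (parental) and 7293, 6559 and 7822 CPM (aggressive) in the p66High line. The p66High aggressive tumours were all above the p66High parental tumours, while p66Low aggressive replicate 1 lay above p66High aggressive replicate 2. Group means were 5495 ± 1305, 5195 ± 575, 5588 ± 1012 and 7225 ± 634 CPM (SD, n = 3) in the same order. The p66High aggressive mean was 1.39 times the p66High parental mean and 1.29 times the p66Low aggressive mean. In the p66Low line, the aggressive mean was 1.02 times the parental mean. No test was made of a sum.

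**Figure D1:**
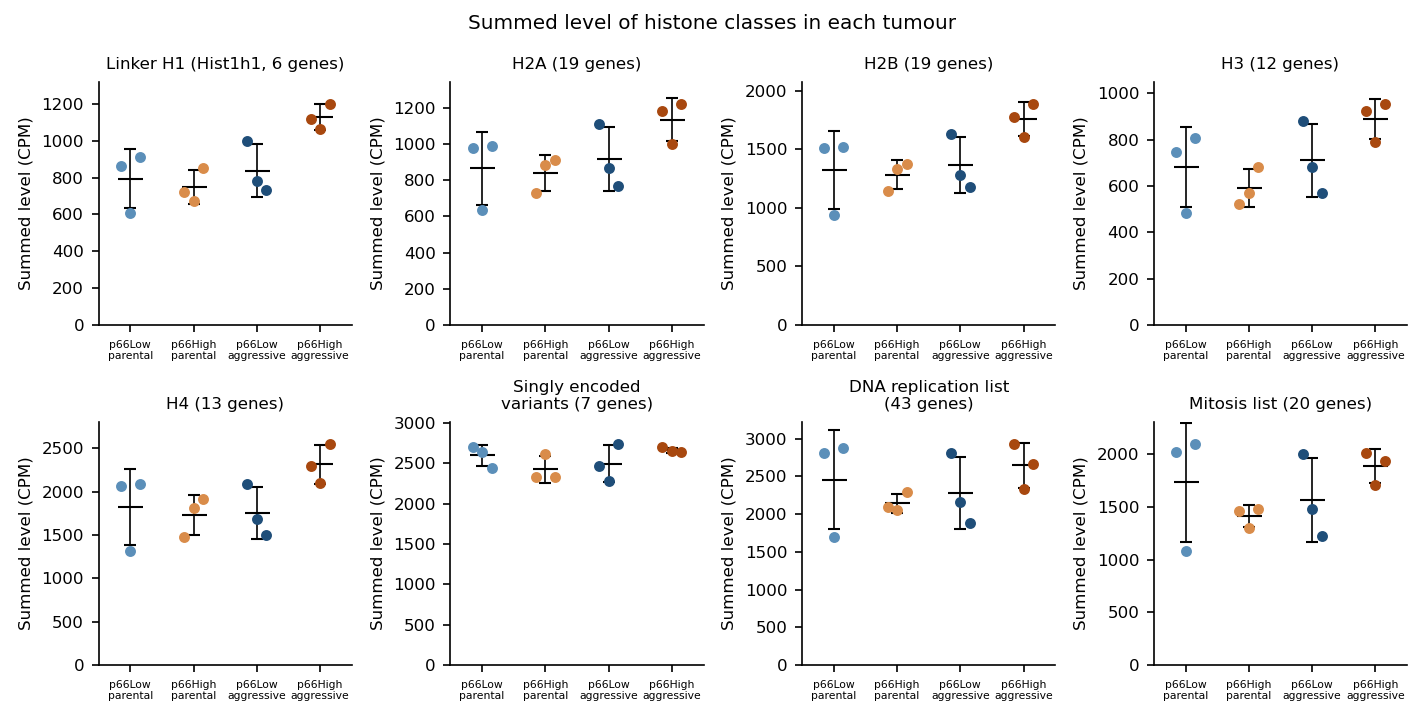
Summed level in CPM (y axis, from 0) of each histone class, of 43 DNA replication genes and of 20 mitosis genes in each tumour, by group (x axis). Points are tumours, the horizontal dash is the mean and the bars are the SD of 3 tumours. The 3 p66High aggressive tumours lie above the 3 p66High parental tumours in each clustered class, from H1 at 1063 to 1201 CPM against 671 to 852 CPM to H4 at 2104 to 2552 CPM against 1474 to 1912 CPM.

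In each clustered class the p66High aggressive mean was the highest of the 4 groups. The 6 H1 genes summed to 1127 ± 69.8 CPM (SD, n = 3) in p66High aggressive against 749 ± 93.3 CPM in p66High parental tumours, a ratio of 1.51. H3 genes gave the same ratio of 1.51, at 889 ± 87.4 against 591 ± 82.5 CPM. H2A, H2B and H4 had ratios of 1.35, 1.37 and 1.34. The H2B sum holds Hist2h2bb, its member of highest mean CPM, whose identifier is that of a lincRNA in GENCODE, as given below. Genes annotated as pseudogenes are in the sums too: Hist1h2al and Hist1h2aj in H2A and Hist3h2bb-ps in H2B. In p66Low tumours the aggressive to parental ratio of the clustered classes was 0.962 (H4) to 1.06 (H2A). The 7 singly encoded genes summed to 2286 to 2741 CPM in all 12 tumours, with a p66High aggressive to p66High parental ratio of 1.1. H3f3b made most of that sum, and without it the log2 ratio was 0.37 in place of 0.14.

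One tumour stood low. P66Low parental replicate 2 was the lowest of 12 tumours in 49 of the 69 clustered genes, and the highest tumour was a p66High aggressive one in 57 of 69, of which 45 were replicate 3, the tumour with the highest Shc1. The same replicate 2 had the lowest sums of DNA replication genes (1698 CPM) and mitosis genes (1082 CPM). The ratio of the clustered histone sum to the sum of 43 DNA replication genes was 2.25 ± 0.0859 in p66Low parental, 2.42 ± 0.202 in p66High parental, 2.46 ± 0.0712 in p66Low aggressive and 2.74 ± 0.229 in p66High aggressive tumours (SD, n = 3). Ranges of that ratio overlapped between p66High parental (2.19 to 2.57) and p66High aggressive tumours (2.49 to 2.93), and did not between p66Low parental (2.20 to 2.35) and p66Low aggressive tumours (2.39 to 2.53). The ratio to the sum of 20 mitosis genes was 3.14, 4.06 and 3.86 in p66High parental and 3.63, 3.83 and 4.04 in p66High aggressive tumours, with the second group inside the range of the first. In the p66Low line it was 3.06, 3.69 and 3.02 before and 3.35, 3.59 and 3.88 after selection, also overlapping.

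Levels differed widely within a class. Per kilobase of the RefSeq gene span, over 61 clustered genes with a span under 1000 bases, the mean level over 12 tumours was highest for the H4 gene Hist1h4m (693 CPM per kb). Hist2h2bb, an H2B gene by its symbol, came next at 681 CPM per kb of its RefSeq span of 493 bases. Its identifier in the count table, however, is in GENCODE M21 that of Gm42743, a spliced lincRNA of 1511 exon bases that overlaps Hist2h2bb, so neither its level per length nor the transcript behind its counts is settled. The class medians per kilobase were 306 for H4, 224 for H1, 119 for H2B, 106 for H3 and 85 CPM per kb for H2A. Among H1 genes Hist1h1c had 395, Hist1h1d 261, Hist1h1b 227, Hist1h1e 221, Hist1h1a 46 and Hist1h1t, the testis linker histone, 0.31 CPM per kb. These levels depend on how reads of near-identical copies were counted. The share of a gene's 50-base stretches found in no other GENCODE gene was taken with genes overlapping it left aside. Stretches shared with an overlapping gene thus counted as its own. The median share was 98.8% for H1, 21.1% for H2A, 56.2% for H2B, 42.8% for H3, 60.5% for H4 and 93.9% for the singly encoded genes. Values of the 14 of 19 H2A, 7 of 19 H2B, 7 of 12 H3 and 4 of 13 H4 genes under 50% are therefore uncertain, whereas most of an H1 sequence is its own.

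**Figure D2:**
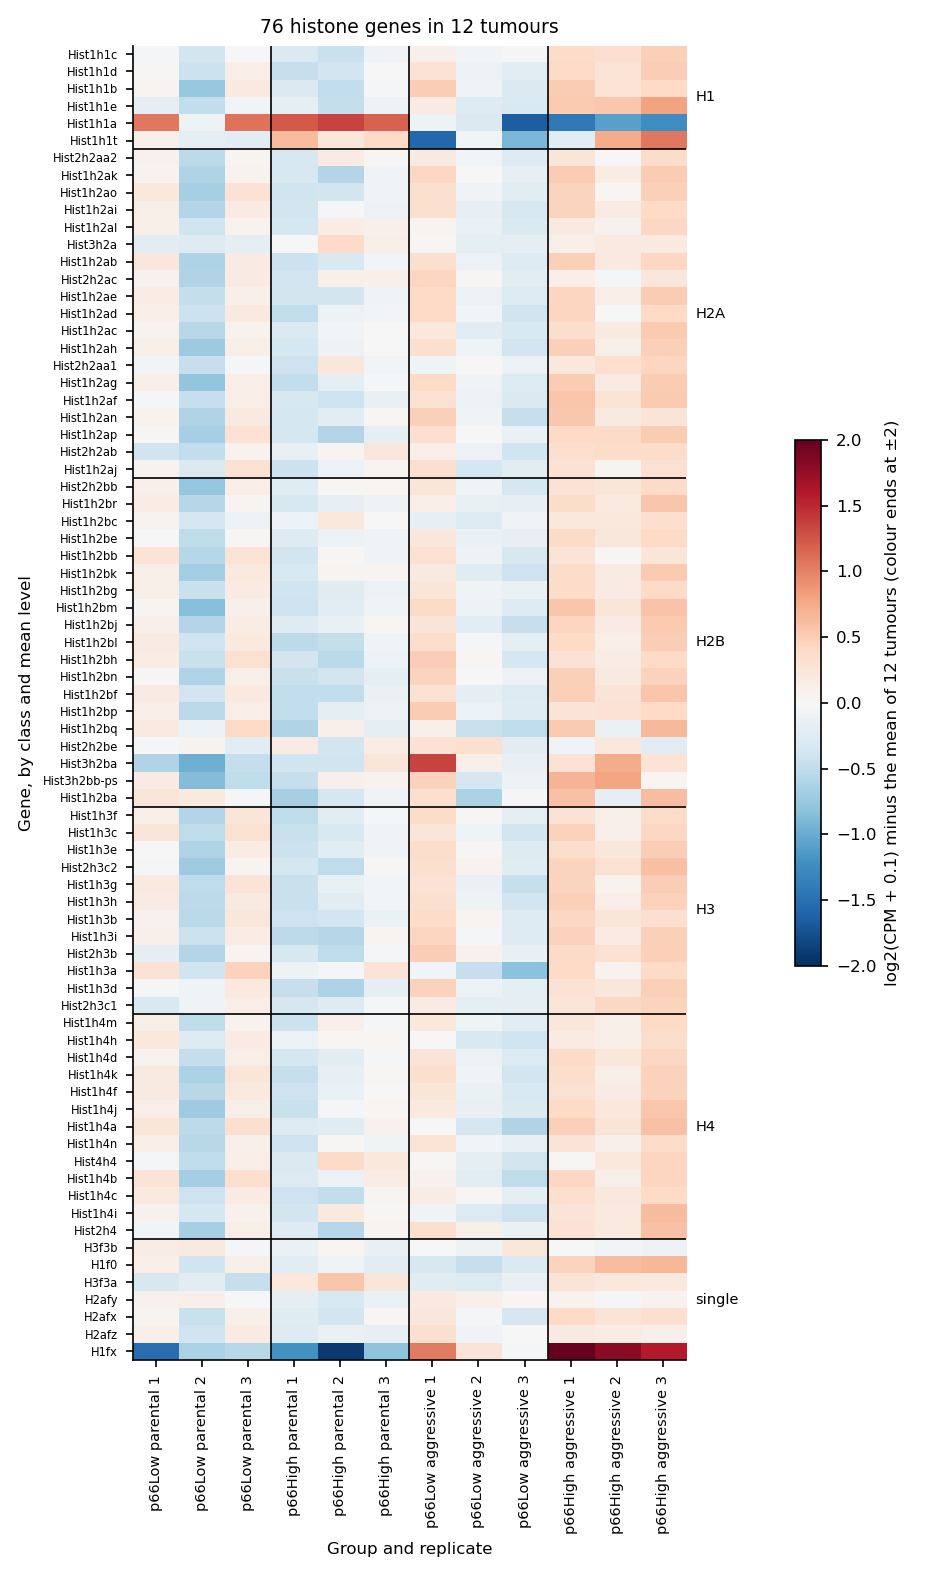
Level of each of 76 histone genes (rows, by class and mean level) in each of 12 tumours (columns, by group and replicate), as log2(CPM + 0.1) minus the gene's mean over 12 tumours; red is above and blue below that mean, and the colour scale ends at ±2. Most clustered genes are blue in p66Low parental replicate 2 and red in p66High aggressive tumours, while Hist1h1a, in the H1 block, is blue in p66High aggressive tumours.

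In p66High tumours, aggressive tumours were compared with parental tumours, which asks what differed after selection in the presence of p66ShcA. After adjustment over 19370 genes (edgeR's quasi-likelihood test, Benjamini-Hochberg, threshold 0.05), 8 histone genes rose and 1 fell, beside 1150 genes called in all (5.94%, with 3.11% higher and 2.82% lower). The 4 linker genes H1fx, Hist1h1e, H1f0 and Hist1h1c rose and Hist1h1a fell. The others that rose were Hist1h2bf, and, named after their values were seen, Hist1h2af, Hist1h3d and Hist1h2ap. At an unadjusted p under 0.05, 50 histone genes were higher and 1 lower, where 22.7% of all genes passed in either direction. The log2 difference was above 0 in 72 of 76 members, against 49.7% of all genes, and its median was 0.54 against -0.00 over all genes. The p66High aggressive tumours were all above the p66High parental tumours in 58 of 76 members, where 16.5% of all genes showed that. H1 genes had a median difference of 0.65, H3 0.60, H2B 0.58, H2A 0.50 and H4 0.48.

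The count of called members moved with single libraries. It was 23 without p66Low parental replicate 2, and it was 4 without p66High parental replicate 2 and 5 without p66High parental replicate 1, p66High parental replicate 3, p66High aggressive replicate 1 or p66High aggressive replicate 3. It was 1 (H1fx) with tumours of a shared title number summed. Calls over all genes moved too, from 1150 in the main fit to 1382 without p66Low parental replicate 2. They were 457 without p66High parental replicate 2 and 305 with tumours of a shared title number summed. The median difference of the members stayed between 0.46 and 0.63 over the alternatives.

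Hist1h1a, which encodes H1.1, a replication-dependent linker histone, fell after selection in both lines. It lies at chr13:23763666-23764406 (plus strand) and has 1 exon, and 100% of its 50-base stretches were its own. Its level was 54.6, 24.6 and 55.8 (parental) and 24.6, 21.6 and 8.31 CPM (aggressive) in the p66Low line, and 61.5, 67.4 and 60.1 (parental) and 9.75, 12.4 and 11.04 CPM (aggressive) in the p66High line. The p66High groups were far apart, and in the p66Low line the low parental replicate 2 met the highest aggressive tumour. In p66High tumours it fell by 2.51 on the log2 scale (SE 0.38, adjusted p = 0.00379, edgeR). In p66Low tumours it fell by 1.32 (SE 0.37, adjusted p = 0.0299, edgeR) with overlapping groups. Without the 3 libraries holding lymph node transcripts the p66Low value was -2.45 (adjusted p = 0.0204, edgeR, 1 aggressive tumour left, whose spread is taken from the other groups), and without p66Low aggressive replicate 2, p66Low parental replicate 1 or p66Low parental replicate 3 it did not pass. The fall in p66High tumours missed the threshold with tumours of a shared title number summed (adjusted p = 0.057, edgeR). The difference between the lines was -1.19 and did not pass (adjusted p = 0.153, edgeR). As a share of the summed counts of the 8 linker genes, Hist1h1a made 4.05 ± 0.945% in p66Low parental, 6.29 ± 0.83% in p66High parental, 1.67 ± 0.711% in p66Low aggressive and 0.709 ± 0.0974% in p66High aggressive tumours (SD, n = 3).

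**Figure D3:**
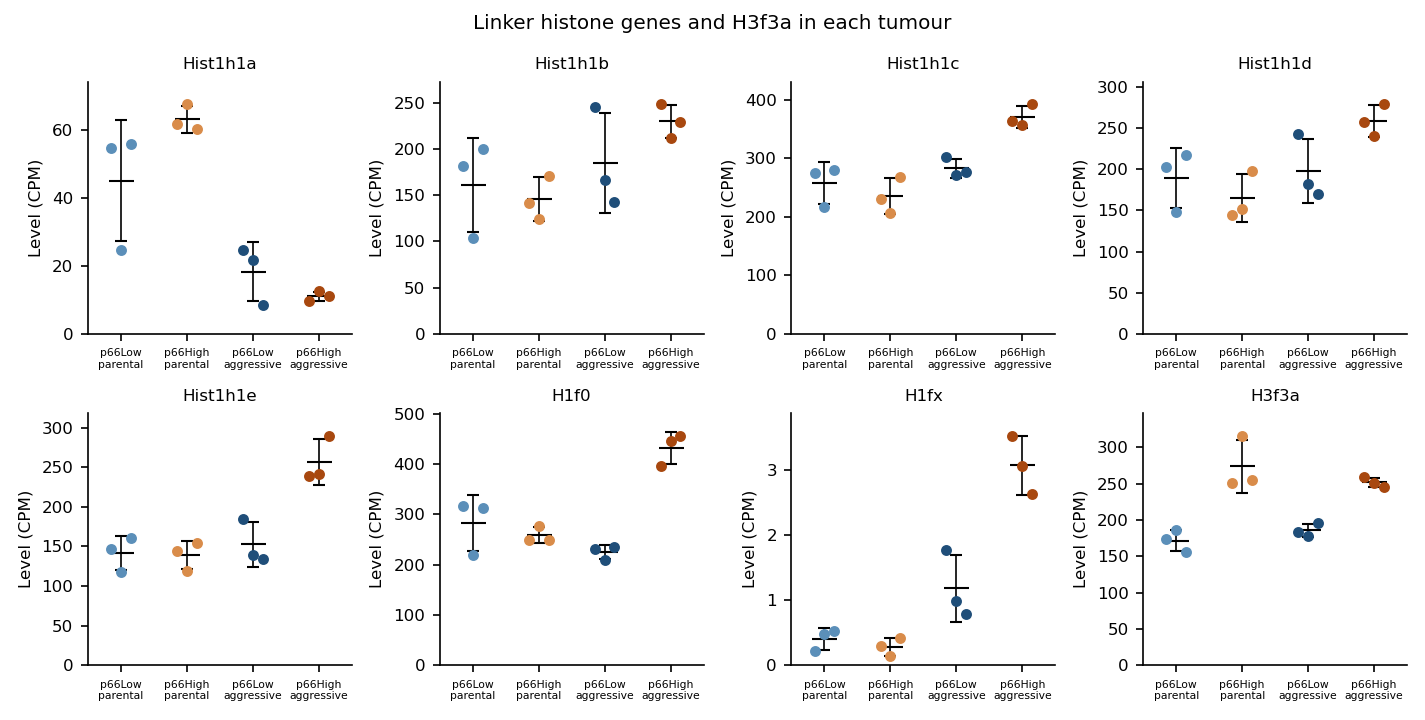
Level in CPM (y axis, from 0, a different scale for each gene) of 7 linker histone genes and H3f3a in each tumour, by group (x axis); points are tumours, the dash is the mean and bars are the SD of 3 tumours. Hist1h1a is at 8.31 to 24.6 CPM in the 6 aggressive tumours, H1f0 and Hist1h1e are highest in p66High aggressive tumours, and H3f3a is higher in both p66High groups than in both p66Low groups.

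H1fx, which encodes the replication-independent linker histone H1x, was a gene of few counts that rose after selection in both lines. Its level was 0.216, 0.487 and 0.520 (parental) and 1.77, 0.991 and 0.785 CPM (aggressive) in the p66Low line, and 0.293, 0.141 and 0.420 (parental) and 3.53, 3.06 and 2.63 CPM (aggressive) in the p66High line. All 6 aggressive tumours were above all 6 parental tumours. Raw counts were only 4 to 139 per tumour. The rise was 3.35 on the log2 scale in p66High tumours (SE 0.45, adjusted p = 0.00192, edgeR) and 1.50 in p66Low tumours (SE 0.45, adjusted p = 0.0418, edgeR). In p66Low tumours the call was lost when any 1 of 8 tumours was left out (the 3 p66Low parental ones, replicates 1 and 2 of p66Low aggressive and of p66High aggressive, and p66High parental replicate 1). The p66Low value was 0.95 (adjusted p = 0.383, edgeR) without those 3 libraries holding lymph node transcripts. In the aggressive tumours H1fx was 1.42 higher in p66High than in p66Low (SE 0.42, adjusted p = 0.0308, edgeR), a call lost without p66Low aggressive replicate 2 or 3 or any 1 p66High aggressive tumour. The difference of the rise between the lines, 1.85, did not pass (adjusted p = 0.0763, edgeR). Even at its highest, H1fx made 0.198 ± 0.0377% of the counts of 8 linker genes (p66High aggressive, SD, n = 3).

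H1f0, the linker histone H1.0 of polyadenylated mRNA that is known to accumulate in non-dividing and differentiated cells, was highest in p66High aggressive tumours. Its level was 316, 218 and 312 (parental) and 232, 209 and 236 CPM (aggressive) in the p66Low line, and 249, 277 and 250 (parental) and 396, 446 and 456 CPM (aggressive) in the p66High line. The 3 p66High aggressive tumours were above the other 9. It rose by 0.74 in p66High aggressive against parental tumours (SE 0.13, adjusted p = 0.00883, edgeR), and in the p66Low line the value was -0.32 (SE 0.13, adjusted p = 0.122, edgeR), which passed only without p66Low parental replicate 2 (-0.46, adjusted p = 0.0122, edgeR). The difference between the lines, 1.07, passed (SE 0.19, adjusted p = 0.00775, edgeR), beside 12.4% of all genes called for this difference (4.37% positive and 7.99% negative). At an unadjusted p under 0.05, 21 of 76 members passed for it, where 28.5% of all genes did. H1f0 was 0.94 higher in p66High than in p66Low aggressive tumours (SE 0.13, adjusted p = 0.000985, edgeR). Without the 3 libraries holding lymph node transcripts these values were 0.72, 0.99 and 0.89 for the p66High rise, the difference between the lines and the aggressive comparison, with adjusted p of 0.0641, 0.13 and 0.0583 (edgeR). With tumours of a shared title number summed, the p66High rise was 0.76 (adjusted p = 0.0679, edgeR). H1f0 lies at chr15:79028450-79030504, and over the 714 tested genes of chromosome 15 the median difference between the lines was 0.44 and the median in the p66Low line -0.31, against 0.11 in the p66High line. The part of this chromosome-wide difference in the H1f0 result was not tested.

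Hist1h1e and Hist1h1c encode H1.4 and H1.2, the replication-dependent linker histones found in most cell types. Hist1h1e was at 147, 118 and 160 (parental) and 185, 139 and 134 CPM (aggressive) in the p66Low line, and 144, 119 and 154 (parental) and 239, 241 and 289 CPM (aggressive) in the p66High line. The p66High aggressive tumours were again above the other 9. Hist1h1e rose by 0.88 in the p66High line (SE 0.16, adjusted p = 0.00871, edgeR), against 0.11 in the p66Low line (adjusted p = 0.698, edgeR), and the difference of 0.77 passed (SE 0.22, adjusted p = 0.0439, edgeR). That difference missed the threshold in 15 of 22 alternatives, with values of 0.64 to 1.05. Among them were all tumours left out in turn other than p66Low parental replicate 2 and p66Low aggressive replicate 1. The count of members called for the difference between the lines was 13 without p66Low parental replicate 2, 4 without p66Low aggressive replicate 1, 2 without p66Low aggressive replicate 3 and 1 without any other tumour. The p66High rise of Hist1h1e missed the threshold without p66High parental replicate 2 and with tumours of a shared title number summed (0.86, adjusted p = 0.0762, edgeR). Part of the Hist1h1e gene model overlaps that of Hist1h2be. With overlapping genes left aside, 91.8% of the 50-base stretches of Hist1h1e were its own.

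Hist1h1c was at 276, 217 and 281 (parental) and 302, 272 and 276 CPM (aggressive) in the p66Low line, and 230, 207 and 268 (parental) and 363, 356 and 392 CPM (aggressive) in the p66High line. It rose by 0.66 in the p66High line (SE 0.12, adjusted p = 0.00985, edgeR), and missed the threshold with tumours of a shared title number summed (0.62, adjusted p = 0.0846, edgeR). Hist1h1d (H1.3) and Hist1h1b (H1.5) had values of 0.65 and 0.66 in the p66High line and did not pass (adjusted p = 0.0535 and 0.139, edgeR). Their p66High aggressive tumours were nevertheless above all p66High parental tumours, at 240 to 279 against 145 to 198 CPM for Hist1h1d and 212 to 248 against 125 to 171 CPM for Hist1h1b.

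Of the core histones, 4 genes rose in the p66High line. Hist1h2bf (H2B) was at 21.7, 21.7 and 27.8 CPM in p66High parental and 42.4, 36.5 and 45.0 CPM in p66High aggressive tumours, a rise of 0.80 (SE 0.19, adjusted p = 0.0324, edgeR). Hist1h2af and Hist1h2ap (H2A) rose by 0.74 and 0.80 (adjusted p = 0.0328 and 0.047, edgeR) and Hist1h3d (H3) by 0.74 (adjusted p = 0.033, edgeR). With overlapping genes left aside, 34.2% of the 50-base stretches were found in no other gene for Hist1h2bf, 20.3% for Hist1h2af, 6.9% for Hist1h2ap and 75.2% for Hist1h3d. None of these 4 calls held with tumours of a shared title number summed, or without any 1 p66High parental tumour, p66High aggressive replicate 1 or p66High aggressive replicate 3. The 3 core genes of highest mean CPM in each class had differences below these, and none passed. They were 0.24, 0.71 and 0.61 for the H2A genes Hist2h2aa2, Hist1h2ak and Hist1h2ao, and 0.35, 0.58 and 0.22 for the H2B genes Hist2h2bb, Hist1h2br and Hist1h2bc. For H3 they were 0.50, 0.60 and 0.59 (Hist1h3f, Hist1h3c and Hist1h3e) and for H4 0.36, 0.23 and 0.54 (Hist1h4m, Hist1h4h and Hist1h4d). Adjusted p ranged from 0.0708 for Hist1h2ak to 0.463 for Hist2h2aa2 (edgeR). Hist1h4m was at 258 ± 47.3 CPM in p66High parental and 331 ± 32.7 CPM in p66High aggressive tumours (SD, n = 3), and Hist2h2bb at 318 ± 34.9 and 406 ± 21.1 CPM. The p66High groups overlapped in Hist2h2aa2 and Hist1h2bc, and in the other genes named here the aggressive tumours were all above the parental ones.

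**Figure D4:**
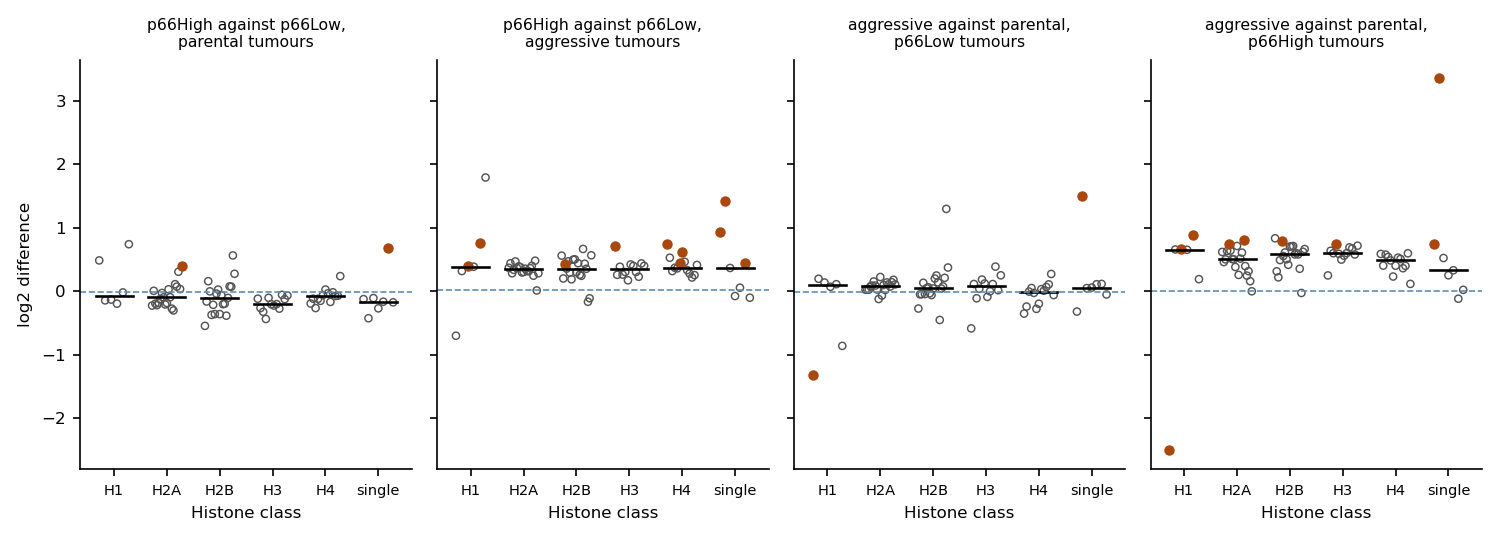
Log2 difference (y axis) of each histone gene, by class (x axis; single, the 7 singly encoded genes), in the 4 comparisons. Filled points passed an adjusted p of 0.05, open points did not, the black bar is the class median and the dashed line is the median of all 19370 genes; the right panel shows class medians of 0.33 to 0.65 with Hist1h1a at -2.51 and H1fx at 3.35.

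Of the 5 singly encoded H2A and H3 genes none passed in the p66High line. H3f3b, the histone gene of highest mean CPM, was at 1598 to 2088 CPM in all 12 tumours and had differences of -0.18 to 0.02 in the 4 comparisons, none past the threshold (adjusted p = 0.392 to 0.943, edgeR). H2afx, whose protein is phosphorylated at DNA breaks, was at 80.0, 73.3 and 95.3 CPM in p66High parental and 125, 113 and 119 CPM in p66High aggressive tumours (0.52, adjusted p = 0.0924, edgeR). H2afz, which encodes H2A.Z of promoters and enhancers, had 0.33 (adjusted p = 0.204, edgeR). H2afy, which encodes macroH2A1, was at 96.0, 88.9 and 100 CPM in p66High parental and 116, 107 and 116 CPM in p66High aggressive tumours (0.25, adjusted p = 0.0924, edgeR). In each of these 3 genes the p66High aggressive tumours were above the p66High parental ones.

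In parental tumours, p66High was compared with p66Low, which asks what differed with p66ShcA before selection. H3f3a rose and, of the clustered genes, Hist3h2a rose, and no histone gene fell, where 8.08% of all genes were called (3.98% higher and 4.1% lower). The median difference of the members was -0.12 against -0.01 over all genes, and 18 of 76 were above 0 (48.8% of all genes). H3f3a was at 173, 186 and 156 (parental) and 183, 178 and 195 CPM (aggressive) in the p66Low line, and 251, 316 and 255 (parental) and 259, 251 and 246 CPM (aggressive) in the p66High line. All 6 p66High tumours were above all 6 p66Low tumours. The difference was 0.67 in parental tumours (SE 0.10, adjusted p = 0.00279, edgeR) and 0.44 in aggressive tumours (SE 0.10, adjusted p = 0.0116, edgeR). The second was not past the threshold without p66Low aggressive replicate 2, or without those 3 libraries holding lymph node transcripts (0.38, adjusted p = 0.239, edgeR). H3f3a lies at chr1:180800832-180813943, and the 1133 tested genes of chromosome 1 had a median difference of 0.44 in parental and 0.37 in aggressive tumours, with 329 of them higher and 17 lower among those called in parental tumours. The part of this chromosome-wide difference in the H3f3a result was not tested. H3f3a made 8.26 ± 0.156% of the counts of H3f3a and H3f3b in p66Low parental, 13.9 ± 0.681% in p66High parental, 9.23 ± 0.613% in p66Low aggressive and 12.8 ± 0.0577% in p66High aggressive tumours (SD, n = 3).

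Hist3h2a is an H2A gene outside the large cluster. Parental tumours had 47.0, 45.2 and 48.0 CPM of it in the p66Low line and 53.9, 71.0 and 58.7 CPM in the p66High line, and the groups did not overlap. Its rise of 0.39 (SE 0.10, adjusted p = 0.0423, edgeR) lost the call in 15 of 23 alternatives. Among them were all tumours left out in turn other than p66High parental replicate 1 and p66Low aggressive replicates 1 and 3. H2afy was lower in each p66High parental tumour than in each p66Low parental tumour (-0.27, adjusted p = 0.061, edgeR), and DESeq2 called it.

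In aggressive tumours, p66High was compared with p66Low. After adjustment 10 histone genes rose and none fell, where 21% of all genes were called (8.92% higher and 12.1% lower). They were H1f0, Hist1h1e, H3f3a, Hist1h2bc, Hist1h4i and Hist1h4a and, named after their values were seen, H1fx, Hist1h1c, Hist1h4h and Hist1h3a. At an unadjusted p under 0.05 there were 24, all higher (33.4% of all genes passed in either direction), and 71 of 76 members had a difference above 0 (51.9% of all genes). The median difference was 0.36, and the class medians of the clustered genes lay between 0.34 (H3) and 0.39 (H1).

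Hist1h1e was 0.75 higher in p66High than in p66Low aggressive tumours (SE 0.16, adjusted p = 0.00665, edgeR) and passed in all 23 alternatives, with an adjusted p of at most 0.0404. Of the H4 genes, Hist1h4a was at 125, 98.5 and 81.6 CPM in p66Low aggressive and 173, 149 and 187 CPM in p66High aggressive tumours (0.74, adjusted p = 0.0301, edgeR). Hist1h4i was at 95.2, 83.2 and 74.7 against 120, 115 and 155 CPM (0.62, adjusted p = 0.026, edgeR). Both sets of tumours were fully apart in these genes. Hist1h2bc had a difference of 0.42 (adjusted p = 0.0258, edgeR). Hist1h3a, Hist1h4h and Hist1h1c had 0.71, 0.45 and 0.39 (adjusted p = 0.0464, 0.0399 and 0.0398, edgeR). Without the 3 libraries holding lymph node transcripts, which leaves 1 p66Low aggressive tumour, only Hist1h1e passed, at 0.95 (adjusted p = 0.0404, edgeR), and the other values were 0.34 to 1.98. The count of called members was thus 1 there. It was 3 without p66Low aggressive replicate 2 or p66High aggressive replicate 3, 4 without p66High aggressive replicate 1, 5 without p66Low aggressive replicate 3 and 6 without p66High aggressive replicate 2. Calls over all genes moved too, from 4077 in the main fit to 2438 without p66Low aggressive replicate 2. They were 2722 without p66High aggressive replicate 3 and 4502 without p66Low aggressive replicate 3.

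In p66Low tumours, aggressive tumours were compared with parental tumours. H1fx rose and Hist1h1a fell, with the values given above, where 16.6% of all genes were called (9.6% higher and 7.03% lower). The median difference of the members was 0.05 and 52 of 76 were above 0 (47.7% of all genes). That median changed sign over the alternatives, from -0.20 to 0.18. The lowest value was the one without the 3 libraries holding lymph node transcripts. Neither call held when only the 6 tumours of the line were fitted, or with tumours of a shared title number summed, and none of either remained without p66Low parental replicate 1, p66Low parental replicate 3 or p66Low aggressive replicate 2. Hist3h2ba, an H2B gene of low level picked after its value was seen, had 1.08, 0.812 and 1.20 CPM in parental and 4.48, 1.83 and 1.51 CPM in aggressive tumours of this line (1.29, adjusted p = 0.0502, edgeR), where 1 tumour carried most of the difference.

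On chromosome 13, in p66High tumours, 54 of the 55 Hist1 genes were above 0 and Hist1h1a was the only one below. The last gene in this order, Hist1h2al, a processed pseudogene in GENCODE that starts at position 51202727, lies far outside the cluster of the others. In p66Low tumours 34 were above 0 and 21 below. Over 727 tested genes of chromosome 13, most Hist1 genes among them, the median was -0.01 in the p66High and -0.13 in the p66Low line. It was 0.19 for the difference between the lines, -0.08 between parental and 0.08 between aggressive tumours. Medians over all genes were -0.00, -0.02, 0.05, -0.01 and 0.02 in the same order. The part of this chromosome-wide difference in the histone results was not tested. The 4 genes next to each other near the end of the cluster, Hist1h4b, Hist1h4a, Hist1h3a and Hist1h1a, had values of -0.24, -0.35, -0.59 and -1.32 in the p66Low line, of which only that of Hist1h1a passed (edgeR). In the p66High line the same 4 had 0.40, 0.58, 0.25 and -2.51. Hist1h2ba, the next gene after Hist1h1a, had -0.28 in the p66Low and 0.83 in the p66High line (adjusted p = 0.692 and 0.233, edgeR). This stretch was picked after its values were seen.

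**Figure D5:**
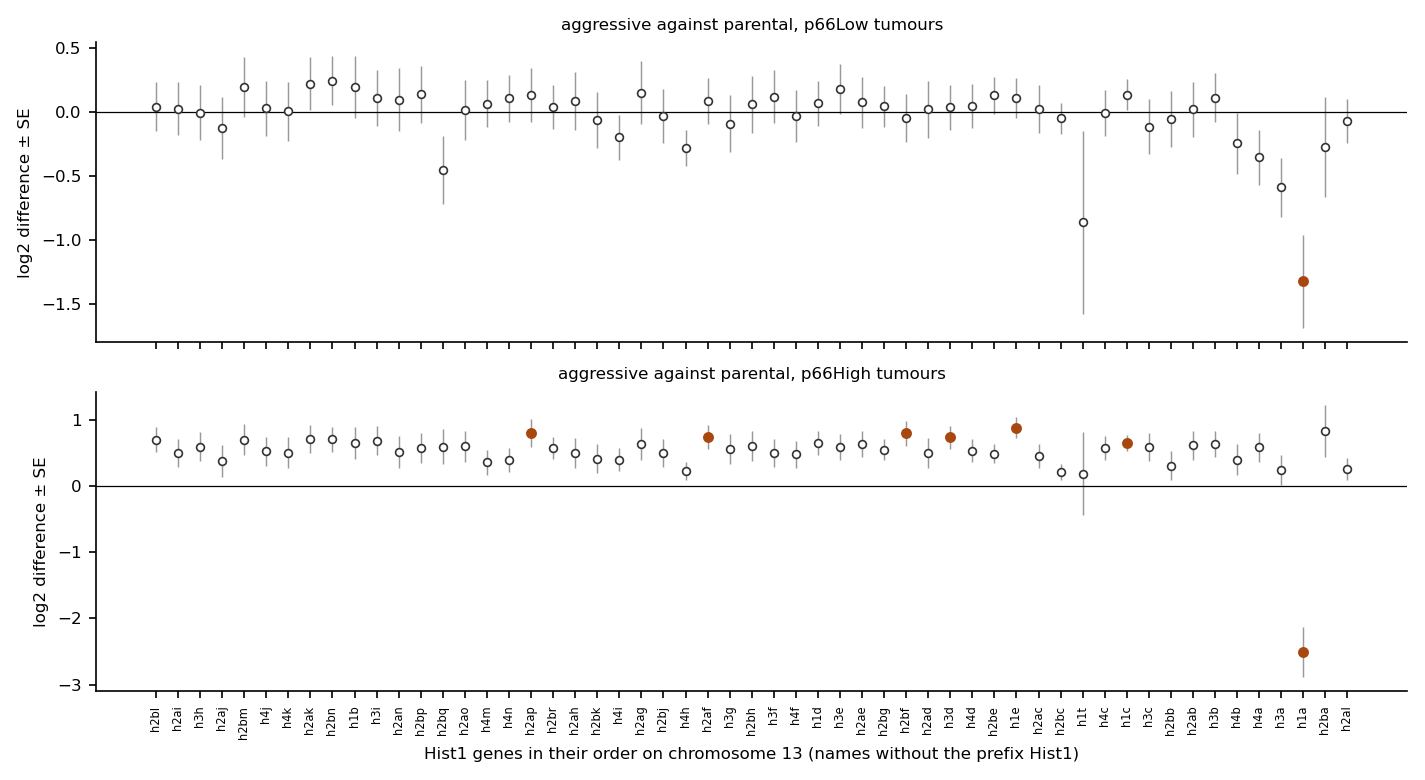
Log2 difference between aggressive and parental tumours (y axis, ± SE) of the 55 Hist1 genes in their order on chromosome 13 (x axis, order only, not to scale), in p66Low (top) and p66High tumours (bottom). Filled points passed an adjusted p of 0.05; in the bottom panel Hist1h1a alone is below 0, at -2.51, and its 3 neighbours Hist1h4b, Hist1h4a and Hist1h3a are above it.

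Genes that make, process and carry histones were followed in fixed lists. The shares of all genes called, against which their counts are read, were 5.94% after selection in the p66High line, 16.6% in the p66Low line, 8.08% between parental and 21% between aggressive tumours. Of 17 genes for processing and decay of replication-dependent histone mRNA, 1 rose and none fell in the p66High line after selection: Sympk, a scaffold of the 3′ end cleavage complex, by 0.45 (adjusted p = 0.0349, edgeR). In the p66Low line 1 of 17 fell, Lsm11 of the U7 particle that cleaves histone mRNA, by 0.59 (adjusted p = 0.0058, edgeR). In aggressive tumours Lsm11 and Ncbp2 were higher in p66High (0.39 and 0.36, adjusted p = 0.0279 and 0.0249, edgeR) and Exosc10, a nuclease of the exosome, lower (-0.89, adjusted p = 0.000257, edgeR). Exosc10 was also lower in p66High parental tumours (-0.86, adjusted p = 0.000633, edgeR), the 1 of 17 called there. Slbp, the stem-loop binding protein, was at 49.6 to 75.2 CPM in all tumours and had differences of -0.08 to 0.22, none past the threshold.

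Of 10 genes that switch histone transcription, Pou2f1, which encodes the octamer-binding factor Oct-1, rose with p66 in parental and aggressive tumours (0.53 and 0.40, adjusted p = 0.0057 and 0.0119, edgeR), and no other passed in any comparison. Pou2f1 lies on chromosome 1 too. Npat, the coactivator that cyclin E and Cdk2 turn on at histone genes, had 0.32 in the p66High line (adjusted p = 0.118, edgeR) and 0.19 in the p66Low line. Of 22 histone chaperones, Chaf1b, a subunit of the CAF-1 complex that deposits H3 and H4 at replication, fell in the p66High line (-0.74, adjusted p = 0.0382, edgeR) and was lower in p66High than in p66Low aggressive tumours (-0.93, adjusted p = 0.00512, edgeR). Daxx, which deposits H3.3, rose in the p66Low line (0.39, adjusted p = 0.0304, edgeR) and was lower in p66High aggressive tumours (-0.55, adjusted p = 0.00476, edgeR), and Hjurp, the CENP-A chaperone, was higher there (0.70, adjusted p = 0.00569, edgeR). The part of the chromosome 1 difference in the Hjurp call was not tested. No chaperone passed between parental tumours.

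Other variants numbered 10, of which 4 were tested. H2afv (H2A.Z.2) rose in the p66High line (0.45, adjusted p = 0.00739, edgeR) and was higher in p66High aggressive tumours (0.42, adjusted p = 0.00368, edgeR). H2afj (H2A.J) fell in the p66Low line (-0.68, adjusted p = 0.00096, edgeR) and was lower in p66High parental tumours (-0.46, adjusted p = 0.00921, edgeR).

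Proliferation genes were mostly on the same side as the histones in the p66High line, with no call. In the p66High line none of 43 DNA replication genes passed after adjustment (edgeR), 8 were higher at an unadjusted p under 0.05 (22.7% of all genes passed in either direction), 42 of 43 were above 0 (49.7% of all genes), and 24 of 43 had aggressive tumours all above parental ones (16.5% of all genes). None of 20 mitosis genes passed, 5 were higher unadjusted, and 18 of 20 had aggressive tumours all above. Mcm2, of the replicative helicase, had 0.42 (adjusted p = 0.32, edgeR) and Mki67, a marker of cycling cells, 0.42 (adjusted p = 0.315, edgeR). In aggressive tumours, p66High against p66Low, Prim2 and Mcm6 rose among the replication genes (0.78 and 0.69, adjusted p = 0.00457 and 0.048, edgeR), and Cenpf among the mitosis genes (0.91, adjusted p = 0.0132, edgeR). Over the 1133 tested genes of chromosome 1 the median in this comparison was 0.37, with 400 called higher and 125 lower. The part of this chromosome-wide difference in these calls was not tested. No gene of either list passed in the other 2 comparisons. By direction, 38 of 43 replication and 20 of 20 mitosis genes were above 0 between aggressive tumours (medians 0.17 and 0.30). Between parental tumours 40 of 43 and 19 of 20 were below 0. In the p66Low line 30 of 43 and 17 of 20 were below 0, where 52 of 76 histone genes were above. The histone median there changed sign over the alternatives (-0.20 to 0.18). For the difference between the lines 43 of 43 and 20 of 20 were above 0, with none called. The part of cycling cells in the histone differences was not tested beyond the ratios given above.

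Of 17 other short RNAs without a poly(A) tail, none passed in the p66High line (edgeR, none at an unadjusted p under 0.05), and 12 were below 0. Their sum was 23741, 38573 and 27490 CPM in p66High parental and 18393, 24610 and 30852 CPM in p66High aggressive tumours, with overlapping groups. In the p66Low line 4 of the 17 fell (7.03% of all genes did), among them Rny1 (-2.21, adjusted p = 0.0408, edgeR) and Snora73a (-1.11, adjusted p = 0.0281, edgeR), and in aggressive tumours 3 were higher in p66High (8.92% of all genes were): Terc, Scarna13 and Rpph1, by 0.65, 0.49 and 0.91 (adjusted p = 0.0223, 0.0416 and 0.0487, edgeR). By direction, 16 of 17 were below 0 in the p66Low line (median -0.51). Between aggressive tumours 14 of 17 were above 0, and between parental tumours 11 were below. For the difference between the lines 17 of 17 were above 0 (median 0.54), with none called, and 70 of 76 histone genes were (median 0.49). The part of these RNAs in the histone differences was not tested.

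Of 7 tested nuclear and mitochondrial RNAs, which are often read as signs of RNA quality and of the share of nuclei in a sample, 6 were above 0 in the p66High line after selection, with a median of 0.46. None passed (edgeR, 3 higher at an unadjusted p under 0.05), and aggressive tumours were all above parental ones in mt-Cytb, mt-Co1 and mt-Nd1 (0.61, 0.41 and 0.46). In aggressive tumours mt-Cytb was higher in p66High (0.66, adjusted p = 0.0274, edgeR), and its difference between the lines passed too (0.90, adjusted p = 0.0479, edgeR), where the median of the 7 was 0.82. Their summed level overlapped between p66High parental (20483 to 31746 CPM) and p66High aggressive tumours (26347 to 34230 CPM). Their part in the histone differences was not tested.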

How the data were processed

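Per the labels' protocols, ribosomal RNA was removed from total RNA of 12 bulk tumours before stranded libraries were prepared. Trimmomatic 0.32, STAR 2.3.0e, featureCounts 1.4.4 and the mm10 build are named, per the submitters' processing notes. The authors deposited whole-number read counts per gene, not normalized. Not given in the sources used here are the annotation, the strand setting and how multi-mapping reads were counted, so genes with near-identical copies, overlapping genes and antisense partners are uncertain. Depth was 17.4 to 76.1 M (mega-counts) per tumour.

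Counts were analysed with edgeR 4.0.16 (R 4.3.3): filterByExpr left 19370 genes, TMM factors scaled the libraries, and 12 tumours in 4 groups entered 1 quasi-likelihood fit with its F-test (8 residual degrees of freedom), with Benjamini-Hochberg adjustment over all genes and a threshold of 0.05. The fit was tested on simulated data. CPM are counts per mega-count of the scaled library, and the SE of a log2 difference is its size over the square root of F. Alternatives were RLE, upper-quartile and no scaling, DESeq2 1.42.0, limma-voom (limma 3.58.1), a robust fit, other filters, fewer tumours and summed titles. The 76 members were matched to GENCODE M21 (69 by identifier, 7 by symbol) and 75 to RefSeq, 66 with a promoter. Sequences are from GENCODE and RefSeq on GRCm38.

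The members and gene lists were chosen with earlier results of these data known. Named were Shc1, the singly encoded members, the 3 members of highest mean CPM in each class, up to 6 called members of smallest p in each comparison, and up to 4 genes of smallest p in a list, with Slbp, Npat, Mki67 and Mcm2.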

Additional observations from a re-analysis of the deposited data

Results flagged for a closer look

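The difference between aggressive and parental tumours was not the same in both lines for 2 histone genes, by the test of that difference itself (edgeR's quasi-likelihood test, Benjamini-Hochberg adjustment over 19370 genes). Beside these 2 of 76 members, 12.4% of all genes were called for it. For H1f0 the difference in p66High tumours exceeded that in p66Low tumours by 1.07 on the log2 scale (adjusted p = 0.00775), with 3 of 3 p66High aggressive tumours above all other tumours. For Hist1h1e it did so by 0.77 (adjusted p = 0.0439), again with 3 of 3 p66High aggressive tumours above all others. The Hist1h1e call was lost in 15 of 22 alternatives and the H1f0 call in 1 of 22.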

How the results depend on the processing

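Of 25 called results of single members, 3 passed under every one of 23 alternatives: H3f3a in parental tumours (p66High against p66Low), Hist1h1e in aggressive tumours (p66High against p66Low) and H1fx in p66High tumours (aggressive against parental). None of the 46 member results that were followed changed sign. They had been chosen as called or, for some named members, by an unadjusted p under 0.05 (edgeR). Differences nearer 0 were not followed, so their sign was not checked. The number of called members, with 1 tumour left out, was 1 to 2 for p66High against p66Low in parental tumours, 3 to 12 in aggressive tumours, 0 to 3 for aggressive against parental in p66Low, 4 to 23 in p66High tumours, and 1 to 13 for the difference between the lines. For p66High against p66Low in parental tumours it was 1 with upper-quartile scaling, limma-voom, no filter, only the 6 tumours compared, shared title numbers summed, or without the 3 libraries holding lymph node transcripts. In aggressive tumours it was 4 with library size alone, 5 with summed titles and 1 without the 3 libraries. In p66Low tumours it was 1 with limma-voom or without the 3 libraries, and 0 with 6 tumours or summed titles. In p66High tumours it was 5 with library size alone, 28 with DESeq2, 32 with 6 tumours and 1 with summed titles. For the difference between the lines it was 1 with RLE, upper-quartile or no scaling and with summed titles, 7 with DESeq2, and 0 without the 3 libraries. The cause was not tested. Calls over all genes moved with these settings too. In p66High tumours they were 1150 in the main fit, 1093 with library size alone and 2261 with DESeq2. With 6 tumours they were 1319 there, and 305 with summed titles. In aggressive tumours they were 4077 in the main fit, 3835 with library size alone and 3130 with summed titles. In p66Low tumours they were 3221, 2128 with 6 tumours and 3044 with summed titles. Without H3f3b, the log2 ratio of summed singly encoded genes was 0.10 in parental and 0.53 in aggressive tumours (p66High against p66Low) and 0.37 in p66High tumours (aggressive against parental). No paired analysis was possible because the replicate numbers only follow accession order. At 4 to 139 counts, H1fx is limited by depth, and near-identical H2A and H3 copies by read sharing.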
